A study of Mus musculus with 10 samples.

Results

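Transcripts that were higher in Patl2-/- (KO) than in WT mouse oocytes both at the MII stage and at the GV stage are described here. They were chosen by their measured values on 10 arrays. A transcript cluster, the unit in which an Affymetrix Clariom D array summarises the probes of a transcript, was a member when it had 1 annotated gene symbol, when its KO mean exceeded its WT mean by at least 0.8 on the log2 scale at MII and at GV, when every KO array lay above every WT array of the same stage, and when its KO mean reached 7 at either stage. Of 65956 clusters, 30638 had 1 symbol and 70 of these met the rule. The rule left out 9 symbols by name, of which 7 met it (Prr11, Ska2, Krt73, Stard4, Sesn3, Klf6 and Zp4-ps), so that 63 clusters with 62 symbols remained, D13Ertd608e being measured by a pair of clusters. A further 38 clusters without a symbol and 1 with several symbols met the measured part of the rule and were not described further. Every KO array was above every WT array at both stages for 2.88% of the 65956 clusters.

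The samples were pooled oocytes freed of follicular cells, with 3 KO and 2 WT samples at MII and 3 KO and 2 WT samples at GV. KO mice were homozygous for a Patl2 allele of C57BL/6NTac background (tm1a) that had lost exon 7 after a cross to EIIaCre mice, whose Cre acts in the early embryo, so the gene was lost in a wide range of tissues and not in the oocyte alone. MII oocytes, arrested in metaphase II after ovulation, were collected 12 h after 5 units of hCG, which followed PMSG by 48 h, and each sample held 28 to 46 of them according to the labels. The paper reports that after full stimulation a larger share of KO than of WT oocytes was released before MII, probably blocked in metaphase I. Its description of the collection names no step that sorted oocytes by stage. KO MII samples may thus hold more such oocytes than WT MII samples, which was not tested. GV oocytes, which are still in prophase I and keep the germinal vesicle, their nucleus, were collected 44 h after 5 units of PMSG, 20 to 32 per sample. The labels call the samples biological replicates without saying which animals they came from, and give no age in days or weeks, so the spread behind every p-value is that between these samples, which may be technical. For GV oocytes the paper gives the age of the females as a range of weeks, not by genotype, and it does not state the strain of the WT mice. Age and strain background may thus differ between the genotypes, which was not tested. A pool gives 1 value for many oocytes, so fewer oocytes with a transcript and less of it per oocyte cannot be told apart.

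Growing oocytes make and store mRNA, and transcription is silent by the end of growth. Meiotic maturation therefore proceeds on stored transcripts, many of which are translated or degraded in a set order, and Pat1 family proteins, to which Patl2 belongs, bind RNA in complexes that hold mRNA untranslated or lead it to decay. A level on these arrays is a log2 value relative to the other transcripts of the same sample, since the same amount of RNA, 250 pg, was labelled from each. Patl2 itself measured 6.44, 6.10 and 6.59 in KO MII samples, against 8.73 and 8.55 in WT MII samples, and 7.71, 7.36 and 8.07 in KO GV samples, against 11.70 and 10.92 in WT GV samples. It was lower in every KO sample. The paper describes a LacZ cassette inserted into the gene besides the loss of exon 7. It reports the first exons near their WT level in KO oocytes and the others lower or absent, so that parts of the gene can still be measured. Of 16 oocyte markers, 14 exceeded on every array the level under which 90% of the negative control probes lay (6.14 to 6.46). Of 22 granulosa and cumulus cell markers 2 did, and 13 did so on no array, among them Foxl2 and Amh. The mean level of the granulosa and cumulus list was 5.28 to 5.76 in KO MII samples, against 5.13 to 5.22 in WT MII samples, and 5.76 to 5.79 in KO GV samples, against 5.38 to 5.78 in WT GV samples. Of single markers, Inha averaged 7.97 in KO and 6.05 in WT MII samples, and 10.56 in KO and 9.40 in WT GV samples. At MII, Cyp11a1 (7.856 in KO, 5.998 in WT) and Tnfaip6 (6.79 in KO, 5.54 in WT) were also higher in KO, whereas Kitl was slightly lower (6.87 in KO, 6.95 in WT). At GV, Hsd17b1 (7.86 in KO, 7.17 in WT) and Kitl (7.37 in KO, 7.04 in WT) were also higher in KO. Ptgs2 (4.89 in KO, 5.52 in WT) and Tnfaip6 (5.14 in KO, 5.42 in WT) were lower at GV, with means under the level of the negative controls. Most of the 22 markers were higher in KO at each stage, with a median KO minus WT difference of 0.14 at MII and 0.16 at GV. No member belongs to a marker list. Hybridisation controls, labelled sequences added to every sample, averaged 11.58 to 11.68 in KO MII samples, against 11.34 to 11.39 in WT MII samples, and 11.71 to 11.98 in KO GV samples, against 11.25 to 11.46 in WT GV samples. The hybridisation controls were thus higher in every KO sample at both stages and the granulosa and cumulus list in every KO sample at MII, and their part in the differences below was not tested.

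Of the 62 member genes, RefSeq gives 46 as protein-coding, 11 as pseudogenes, 1 as a transcribed pseudogene, 2 as long non-coding RNAs, 1 as a miscellaneous RNA and 1 as a microRNA. A promoter sequence, 250 bases before and 50 after the first listed start, was matched for 41 of the 62 genes. To show the DNA in front of the transcripts that differed most, the promoters of the 4 protein-coding members with the largest averaged KO minus WT difference and a matched sequence follow 5′ to 3′ on the strand of the gene (RefSeq, GRCm38.p6). They are Enpp3 (chr10:24836146-24836445, minus strand), Fam162b (chr10:51590411-51590710, minus strand), Bcl2l15 (chr3:103832446-103832745, plus strand) and Usp26 (chrX:51801184-51801483, minus strand), and capitals mark matches to a TATA box (TATAAA) or a CCAAT box (CCAAT) on either strand.
Enpp3: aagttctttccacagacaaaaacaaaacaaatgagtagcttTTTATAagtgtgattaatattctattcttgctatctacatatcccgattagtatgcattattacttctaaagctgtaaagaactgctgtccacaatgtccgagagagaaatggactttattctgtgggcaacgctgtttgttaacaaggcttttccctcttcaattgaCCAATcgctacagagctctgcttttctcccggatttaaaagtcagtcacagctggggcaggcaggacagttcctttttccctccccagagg
Fam162b: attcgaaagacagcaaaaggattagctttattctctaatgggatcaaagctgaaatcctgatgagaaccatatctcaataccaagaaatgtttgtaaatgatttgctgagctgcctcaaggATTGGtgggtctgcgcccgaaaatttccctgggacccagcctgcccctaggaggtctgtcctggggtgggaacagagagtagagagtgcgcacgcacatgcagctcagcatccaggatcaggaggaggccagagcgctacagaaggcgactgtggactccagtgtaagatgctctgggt
Bcl2l15: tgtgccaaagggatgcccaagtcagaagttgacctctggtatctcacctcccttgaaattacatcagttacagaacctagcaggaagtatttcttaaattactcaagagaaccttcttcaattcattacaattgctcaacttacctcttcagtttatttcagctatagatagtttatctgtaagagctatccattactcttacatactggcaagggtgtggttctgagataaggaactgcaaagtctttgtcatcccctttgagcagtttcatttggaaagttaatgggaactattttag
Usp26: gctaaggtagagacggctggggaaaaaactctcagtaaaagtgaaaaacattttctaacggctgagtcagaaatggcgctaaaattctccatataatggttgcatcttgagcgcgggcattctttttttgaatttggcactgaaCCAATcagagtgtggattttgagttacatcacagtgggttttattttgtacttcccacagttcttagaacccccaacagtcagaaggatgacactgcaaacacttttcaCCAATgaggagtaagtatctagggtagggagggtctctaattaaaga
The Enpp3 promoter held 1 match of each kind, that of Fam162b held 1 CCAAT match and that of Usp26 held 2, whereas none of the 6 motifs searched matched in that of Bcl2l15. Among the 41 member promoters, CCAAT matched in 19 (46.3%), against 37.9% of all 27025 promoters of the same length, and the GC box GGGCGG matched in 21 (51.2%), against 35.9%. TATAAA, the AP-2 motif GCCNNNGGC, the MITF E-box CACGTG and the NOBOX motif TAATTG each matched in 3 member promoters (7.32%), against 14.2%, 16.5%, 7.24% and 8.15% of all promoters in that order, with both strands searched. No motif contains another, and the shares are descriptions, to which promoters of all gene types contribute. The median member promoter had 15 CpG dinucleotides, against 7 over all promoters, at a similar GC content (53.7% against 52.7%). Members had to reach a KO mean level of 7, whereas the 27025 promoters were not chosen by level. A comparison with promoters of genes at such a level was not made.

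Because the KO minus WT differences chose the members, they are given as a description with no test. They ran between 0.80 and 2.26 at MII (median 1.20) and between 0.80 and 1.78 at GV (median 1.01), where the medians over all clusters were -0.02 and 0.02. A difference of at least 2-fold was measured in 45 members at MII, in 33 at GV and in 28 at both stages. The difference was larger at MII than at GV in 47 of the 63. The lowest KO array and the highest WT array were 0.15 to 1.78 apart at MII and 0.07 to 1.24 apart at GV. The KO mean reached 7 at both stages in 58 members, at MII alone in 3 and at GV alone in 2. The replicates of KO at MII had a median SD of 0.27 over the members, the pair of WT arrays at MII 0.17, KO at GV 0.22 and WT at GV 0.29. KO MII sample 2 was the highest KO MII array for 36 of the 63 members, and it had the highest mean of the granulosa and cumulus markers among the MII samples (5.76), which KO GV samples 1 and 2 and WT GV sample 1 exceeded. Without it, the rule was met by 56 clusters, 54 of them members.

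**Figure D1:**
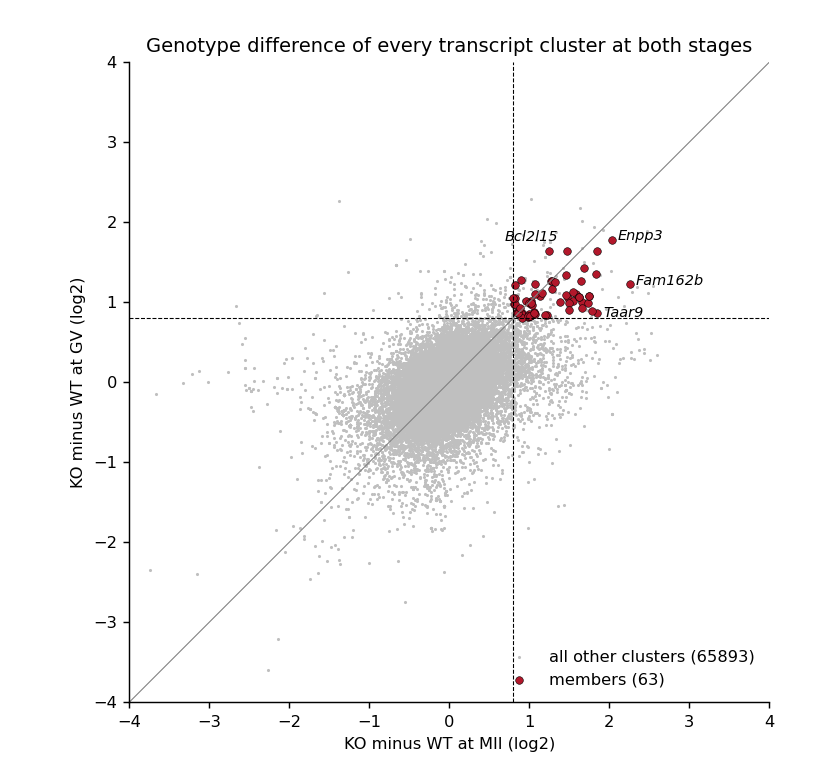
KO minus WT difference of group means (log2) of each transcript cluster, at MII on the x axis and at GV on the y axis. Red points are the 63 members, grey points the other clusters, dashed lines the minimum of 0.8 and the solid line equality. Members lie up and right of both dashed lines by choice, and 47 of them below the solid line.

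Just inside the minimum were Eddm3b, named for expression in the epididymis, Clcn3, a chloride and proton exchanger of endosomes, and the non-coding RNA Gm12747. Eddm3b measured 6.61, 7.16 and 6.66 in KO MII samples, against 5.88 and 6.14 in WT MII samples, and 7.22, 7.53 and 7.63 in KO GV samples, against 6.2 and 6.61 in WT GV samples. For Clcn3 the values were 7.77, 8.10 and 7.58 in KO MII samples, against 7.0 and 6.83 in WT MII samples, and 7.81, 7.56 and 7.71 in KO GV samples, against 7.07 and 6.72 in WT GV samples. Gm12747 gave 8.98, 8.87 and 8.12 in KO MII samples, against 7.72 and 7.98 in WT MII samples, and 9.36, 8.09 and 8.35 in KO GV samples, against 7.36 and 7.88 in WT GV samples. The gap between the groups was therefore as small as 0.15 for Gm12747, whose KO GV sample 1 stood more than 1 unit above the other KO GV samples. Just outside were Klhl28 (0.798 at MII and 0.929 at GV), Kif5c (0.858 and 0.796) and Uqcrc1 (0.789 and 0.871), which each missed the minimum at 1 stage.

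**Figure D2:**
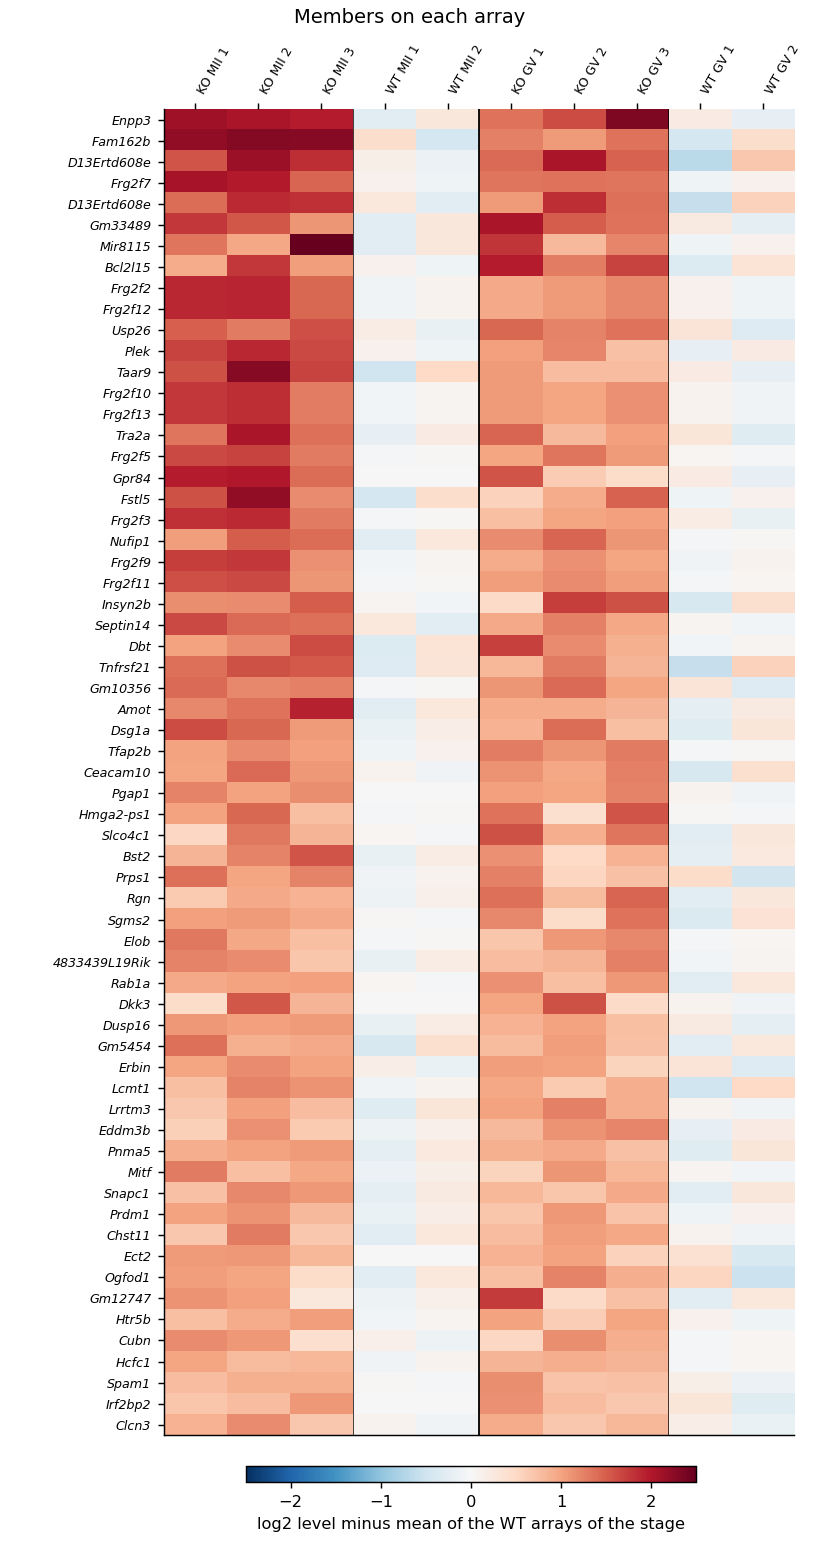
Level of each member on each of the 10 arrays (log2), minus the mean of the WT arrays of the same stage, in order of the KO minus WT difference averaged over both stages. Columns 1 to 3 are KO MII, then 2 WT MII, 3 KO GV and 2 WT GV arrays. Red is above and blue below the WT mean, and the KO columns are red in every row by choice.

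Among genes of the cell surface, adhesion and transport (9 members), Enpp3, an ectoenzyme that cleaves extracellular nucleotides, had the largest averaged difference of all members. It measured 9.25, 9.18 and 9.10 in KO MII samples, against 6.86 and 7.42 in WT MII samples, a 4.12-fold difference of means. At GV it measured 8.37, 8.67 and 9.37 in KO samples, against 7.23 and 6.82 in WT samples, a 3.43-fold difference. KO levels were thus 9.18 ± 0.07 (SD, n = 3) at MII and 8.80 ± 0.51 (SD, n = 3) at GV, and WT levels 7.14 ± 0.40 (SD, n = 2) and 7.03 ± 0.29 (SD, n = 2), with KO GV sample 3 the highest of the 10 arrays. Bst2 (tetherin), an interferon-inducible membrane protein that retains virus particles, measured 12.55, 12.94 and 13.26 in KO MII samples, against 11.51 and 11.88 in WT MII samples, and 13.17, 12.53 and 12.89 in KO GV samples, against 11.79 and 12.26 in WT GV samples. The other members of the group were Ceacam10, a cell adhesion molecule (1.16 at MII and 1.12 at GV), Dsg1a, a desmosomal cadherin (1.38 and 1.01), Slco4c1, an organic anion transporter (0.89 and 1.28), Cubn, a receptor for vitamin B12 bound to intrinsic factor (0.90 and 0.87), Spam1, a sperm surface hyaluronidase (0.85 and 0.88), Lrrtm3, a synaptic adhesion protein (0.82 and 1.05), and Clcn3 (0.91 and 0.80). Every difference of the group lay between 0.82 and 2.04 at MII and between 0.80 and 1.78 at GV. All WT values of Cubn lay under the level of the negative controls.

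Receptors and secreted proteins made up 6 members. Gpr84, a receptor for medium-chain fatty acids known from leukocytes, differed by 1.79 at MII and 0.89 at GV, and Taar9, a trace amine receptor, by 1.85 and 0.86. Htr5b, a serotonin receptor, differed by 0.91 at MII and 0.87 at GV, and Tnfrsf21, death receptor 6, by 1.5 and 0.99. The secreted Fstl5, of the follistatin-like family, differed by 1.66 and 1.00, and Dkk3, of the Dickkopf family of Wnt antagonists, by 0.95 and 1.02. The larger difference was thus at MII in 5 of these genes and at GV in Dkk3. At GV, Gpr84 exceeded the level of the negative controls in KO sample 1 alone (6.75). The WT MII values of Gpr84 and Taar9 and all WT values of Dkk3 lay under that level, as did some WT values of Fstl5 and Tnfrsf21.

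Signalling, cytoskeletal and cell death genes numbered 7. Plek (pleckstrin), a protein kinase C substrate of platelets and leukocytes, measured 8.75, 8.95 and 8.71 in KO MII samples, against 7.17 and 6.95 in WT MII samples, and 8.02, 8.2 and 7.72 in KO GV samples, against 6.79 and 7.19 in WT GV samples. Bcl2l15, of the Bcl-2 family of apoptosis regulators, measured 5.34, 6.17 and 5.45 in KO MII samples, against 4.52 and 4.30 in WT MII samples, and 7.70, 7.02 and 7.42 in KO GV samples, against 5.39 and 6.08 in WT GV samples. Its MII values did not reach that level of the negative controls in either genotype, so that the level minimum was reached at GV alone. Septin14, of a family of GTPases that form filaments, measured 13.26, 13.01 and 12.98 in KO MII samples, against 11.87 and 11.34 in WT MII samples, and 12.24, 12.56 and 12.26 in KO GV samples, against 11.38 and 11.22 in WT GV samples. Ect2, the exchange factor that activates RhoA in cytokinesis, measured 13.06, 13.07 and 12.81 in KO MII samples, against 12.01 and 11.98 in WT MII samples, and 12.52, 12.66 and 12.23 in KO GV samples, against 12.04 and 11.27 in WT GV samples. In Ect2 the gap between the groups was 0.81 at MII and 0.19 at GV, where the WT pair was itself 0.774 apart. Amot (angiomotin), a scaffold of the Hippo pathway, differed by 1.5 at MII and 0.90 at GV, and a second Amot cluster that the rule did not take by 0.85 and 0.57. The JNK and p38 phosphatase Dusp16 differed by 1.06 and 0.87, and Erbin, a scaffold that binds the receptor ErbB2, by 1.06 and 0.86.

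**Figure D3:**
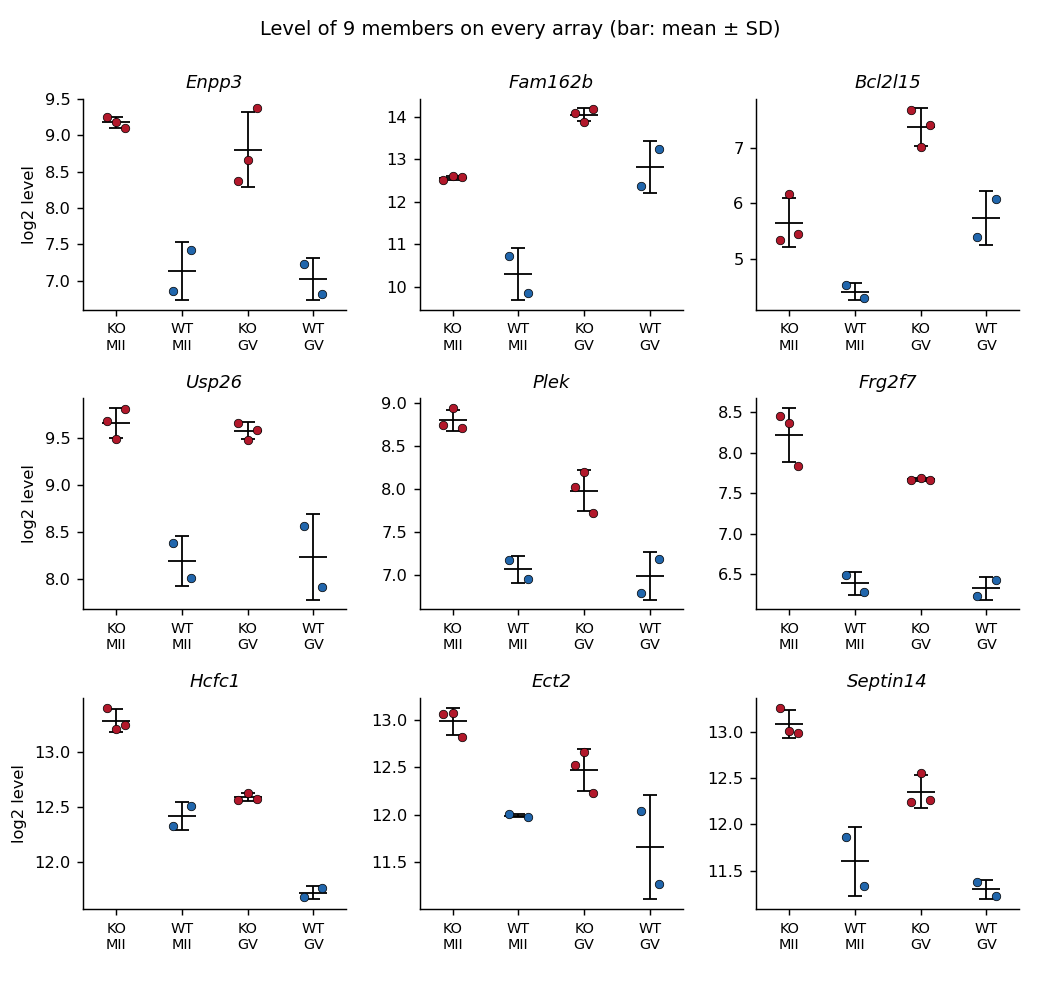
Log2 level (y axis) of 9 members in KO MII, WT MII, KO GV and WT GV samples. Points are arrays (KO red, WT blue), and bars the mean ± SD of 3 KO or 2 WT arrays. Every red point lies above the blue points of its stage, and Fam162b and Bcl2l15 are lower at MII than at GV in both genotypes.

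Genes of protein turnover, modification and trafficking gave 6 members. Usp26, an X-linked deubiquitinase known from the testis, measured 9.68, 9.48 and 9.80 in KO MII samples, against 8.38 and 8.01 in WT MII samples, and 9.66, 9.48 and 9.59 in KO GV samples, against 8.56 and 7.91 in WT GV samples. Elob (elongin B), an adaptor of cullin-RING ubiquitin ligases, measured 9.64, 9.29 and 9.07 in KO MII samples, against 8.28 and 8.36 in WT MII samples, and 11.20, 11.60 and 11.72 in KO GV samples, against 10.46 and 10.57 in WT GV samples. Lcmt1, which methylates the catalytic subunit of protein phosphatase PP2A, measured 9.91, 10.38 and 10.27 in KO MII samples, against 9.06 and 9.23 in WT MII samples, and 11.83, 11.51 and 11.78 in KO GV samples, against 10.35 and 11.37 in WT GV samples. The 6 Usp26 values of KO spanned 0.324 over both stages, whereas the levels of Elob and Lcmt1 were above 1 unit apart between stages in both genotypes. Rab1a, a GTPase of transport between the endoplasmic reticulum and the Golgi, differed by 0.99 at MII and 0.99 at GV, Pgap1, which removes an acyl chain from the GPI anchor, by 1.13 and 1.08, and Ogfod1, a prolyl hydroxylase of a ribosomal protein, by 0.83 and 0.97.

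Transcription and chromatin genes also gave 6 members. Hcfc1 (HCF-1), an X-linked scaffold of chromatin-modifying complexes, measured 13.40, 13.21 and 13.24 in KO MII samples, against 12.33 and 12.51 in WT MII samples, and 12.56, 12.63 and 12.57 in KO GV samples, against 11.68 and 11.76 in WT GV samples. It differed by 0.87 at both stages, with replicates of a group at most 0.195 apart. Tfap2b, the transcription factor AP-2 beta, differed by 1.08 at MII and 1.23 at GV, Mitf, the basic helix-loop-helix factor of melanocytes, by 1.01 and 0.83, and Prdm1 (Blimp1), a repressor needed to specify primordial germ cells, by 0.99 and 0.83. Snapc1, a subunit of the complex that starts small nuclear RNA genes, differed by 1.01 and 0.83, and the corepressor Irf2bp2 by 0.85 and 0.86. Genes of RNA processing gave 2 members. Nufip1, an assembly factor of box C/D small nucleolar ribonucleoproteins, measured 11.10, 11.56 and 11.45 in KO MII samples, against 9.80 and 10.31 in WT MII samples, and 11.24, 11.51 and 11.16 in KO GV samples, against 10.02 and 10.08 in WT GV samples. The splicing regulator Tra2a differed by 1.59 at MII and 1.10 at GV.

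Metabolic enzymes gave 5 members. Dbt, the E2 subunit of the branched-chain keto acid dehydrogenase, differed by 1.27 at MII and 1.26 at GV, Prps1, an X-linked enzyme that makes phosphoribosyl pyrophosphate for nucleotide synthesis, by 1.20 and 0.84, and Rgn (regucalcin), a lactonase, by 0.82 and 1.21. In Prps1 the lowest KO GV array was 0.07 above the highest WT GV array, and the WT GV pair was 0.93 apart. Sgms2, a sphingomyelin synthase, differed by 1.02 and 1.01, and Chst11, a chondroitin sulfotransferase, by 0.88 and 0.93. Of the 5 remaining protein-coding members, Fam162b had the largest difference at MII of all members. It measured 12.51, 12.60 and 12.58 in KO MII samples, against 10.73 and 9.87 in WT MII samples, a 4.8-fold difference, and 14.09, 13.88 and 14.18 in KO GV samples, against 12.38 and 13.25 in WT GV samples, a 2.35-fold difference. Its WT pair was 0.865 apart at MII and 0.87 apart at GV, with opposite samples higher. Insyn2b, of a family of inhibitory synapse proteins, differed by 1.28 and 1.26, and in it the lowest KO GV array was 0.07 above the highest WT GV array. Pnma5, of the paraneoplastic antigen family, differed by 0.99 and 0.86, and the remaining genes were Eddm3b, given above, and 1 gene with a predicted name.

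The Frg2f genes, a family named after FRG2 of the human facioscapulohumeral dystrophy region and annotated by RefSeq as pseudogenes, gave 9 members. All of these lie in a row on chromosome 14, with 1 other RefSeq gene among them. Frg2f7 measured 8.45, 8.37 and 7.84 in KO MII samples, against 6.49 and 6.28 in WT MII samples, and 7.66, 7.69 and 7.66 in KO GV samples, against 6.22 and 6.42 in WT GV samples. Frg2f2 measured 9.53, 9.54 and 9.07 in KO MII samples, against 7.55 and 7.72 in WT MII samples, and 8.56, 8.67 and 8.82 in KO GV samples, against 7.72 and 7.5 in WT GV samples. Frg2f12 had the same values as Frg2f2 on each array, and so had Frg2f13 with Frg2f10, so the 63 members held 61 distinct sets of values. Near-identical copies can share probes, so the 9 Frg2f members are not independent, and which copies were transcribed cannot be told. Their differences ran between 1.46 and 1.83 at MII and between 0.92 and 1.35 at GV, and KO MII sample 3 was the lowest of the KO MII arrays in each. Of 13 Frg2f clusters with 1 symbol, Frg2f6 (0.95 at MII and 0.59 at GV), Frg2f8 (0.84 and 0.53) and Frg2f4 (0.81 and 0.50) missed the minimum at GV with every KO array above every WT array, and Frg2f1, on chromosome 4, had differences of -0.66 and -0.21. Chromosome 14, with the Frg2f genes, held 11 of the 62 member genes (17.7%), against 4.08% of the genes on the array. Chromosomes 1, 3, 10 and X held 6 each (9.68%, against 4.35% to 6.13% of the genes on the array), chromosome 2, which carries Patl2, held Cubn alone, and chromosomes 4, 9, 16 and 19 held none. Taar9 and Enpp3 on chromosome 10 had 9 RefSeq genes between them, as had Gm5454 and Erbin on chromosome 13.

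The other non-coding and pseudogene members were 8 clusters of 7 genes. D13Ertd608e, a transcript on chromosome 13 without a coding sequence in RefSeq, had a pair of clusters. In its first cluster it measured 8.51, 9.10 and 8.79 in KO MII samples, against 7.10 and 6.79 in WT MII samples, and 10.36, 10.97 and 10.41 in KO GV samples, against 8.26 and 9.62 in WT GV samples. The second cluster gave 8.85, 9.33 and 9.29 in KO MII samples, against 7.73 and 7.20 in WT MII samples, and 10.92, 11.69 and 11.22 in KO GV samples, against 9.27 and 10.43 in WT GV samples. In both clusters KO sample 2 was the highest at each stage, and the WT GV pair was more than 1 unit apart. Gm33489, a long non-coding RNA, measured 7.51, 7.29 and 6.84 in KO MII samples, against 5.46 and 6.03 in WT MII samples, and 7.81, 7.29 and 7.14 in KO GV samples, against 5.99 and 5.56 in WT GV samples. Hmga2-ps1, a transcribed pseudogene of a chromatin protein gene, measured 8.82, 9.25 and 8.56 in KO MII samples, against 7.78 and 7.84 in WT MII samples, and 11.46, 10.51 and 11.68 in KO GV samples, against 10.14 and 10.07 in WT GV samples. The lowest KO GV value of Hmga2-ps1, in sample 2, was 0.36 above the WT GV pair.

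The cluster annotated to Mir8115 measured 8.0, 7.63 and 9.29 in KO MII samples, against 6.37 and 6.94 in WT MII samples, and 7.61, 6.63 and 7.05 in KO GV samples, against 5.72 and 5.94 in WT GV samples. KO MII sample 3 was the highest of the 10 arrays, and the SD of the KO MII samples (0.87) was the largest among the members. The identifier of the cluster codes chromosome 11, whereas RefSeq places Mir8115 on chromosome 5 (chr5:122682664-122682685, plus strand, GRCm38.p6), so the cluster may not measure this microRNA, and for the 61 other member clusters whose identifier codes a chromosome both sources gave the same one (that of Amot codes none). Arrays of this kind can measure precursor or host transcripts as well as mature microRNA. The mature sequence of RefSeq is shown so that the annotated product can be identified, with the seed (bases 2 to 8) in capitals.
mmu-miR-8115: cCGCAAUAgcaacaagggcucu

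Whether the members also changed between GV and MII was tested with limma in each genotype. The choice of members did not use this contrast, but it used the same values and asked for KO arrays apart from WT arrays. Members may therefore have less spread between replicates than the background clusters, which was not tested. The shares compared below are thus descriptions. In KO, 14 of 63 members were higher at MII than at GV (22.2%) and 10 were lower (15.9%) at an adjusted p under 0.05. In WT, 1 was higher (1.59%) and 10 were lower (15.9%). Of all 65956 clusters, 3.37% were higher and 7.14% lower at MII in KO, and 1.96% higher and 5.19% lower in WT. Members were chosen to have a KO mean of at least 7, so the nearer background is the 9045 other clusters with 1 symbol and such a level, of which 16.0% were higher and 21.5% lower at MII in KO, and 8.40% higher and 16.7% lower in WT. Against it, the share of members was below for lower in KO and for higher in WT and near for lower in WT. At an unadjusted p under 0.05 the members counted 24 higher and 12 lower in KO, and 7 higher and 12 lower in WT. Of the 14 higher in KO, 6 were Frg2f genes with 4 distinct sets of values, and of the 54 other members 8 were higher (14.8%), so that the share above the background rested on the Frg2f copies. Of the 5 members whose level reached 7 at 1 stage alone, 2 were called in KO, Gpr84 higher and Bcl2l15 lower at MII, and none in WT. Both calls run toward the stage at which the gene was admitted, so nothing is read from them, and among the 58 members that reached 7 at both stages 13 were higher and 9 lower at MII in KO.

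The members lower at MII in both genotypes were 9 clusters: Fam162b, both D13Ertd608e clusters, Hmga2-ps1, Elob, Lcmt1, Rab1a, Rgn and Ceacam10. Elob fell by 2.17 ± 0.17 on the log2 scale in KO (SE, adjusted p = 1.81e-04), and fell by 2.20 ± 0.21 in WT (adjusted p = 6.07e-04). Hmga2-ps1 fell by 2.34 ± 0.30 in KO (adjusted p = 0.00173) and fell by 2.30 ± 0.36 in WT (adjusted p = 0.00759). Fam162b fell by 1.49 ± 0.26 in KO (adjusted p = 0.00911) and fell by 2.52 ± 0.32 in WT (adjusted p = 0.00274). Rab1a fell by 1.29 ± 0.15 in KO (adjusted p = 0.00115) and fell by 1.29 ± 0.18 in WT (adjusted p = 0.00480). The D13Ertd608e clusters changed by -1.78 ± 0.34 and -2.12 ± 0.33 in KO and by -1.99 ± 0.42 and -2.38 ± 0.40 in WT, and Lcmt1 by -1.52 ± 0.25 in KO and -1.71 ± 0.30 in WT. Rgn changed by -1.65 ± 0.21 in KO and -1.27 ± 0.25 in WT, and Ceacam10 by -1.11 ± 0.20 in KO and -1.16 ± 0.25 in WT. Taar9 was called lower in WT (-1.64 ± 0.34, adjusted p = 0.0259) and not in KO (-0.66 ± 0.28, adjusted p = 0.213). Its WT MII values (4.77 and 5.77) lay under the level of the negative controls. The other cluster lower in KO was Bcl2l15, set aside above, whose MII values lay under the level of the negative controls.

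Hcfc1 was the member higher at MII in both genotypes, by 0.69 ± 0.08 in KO (adjusted p = 9.92e-04) and 0.70 ± 0.09 in WT (adjusted p = 0.00375). The other 13 higher in KO were Amot (1.39 ± 0.22, against 0.80 ± 0.26 in WT), Plek (0.82 ± 0.15, against 0.08 ± 0.19), Septin14 (0.73 ± 0.15, against 0.30 ± 0.19), Pgap1 (0.46 ± 0.09, against 0.40 ± 0.11), 6 Frg2f genes (0.52 to 0.70), 2 with predicted names and Gpr84, set aside above. Their adjusted p in KO lay between 0.00474 (Amot) and 0.0403 (Frg2f3). Levels are relative, since equal amounts of RNA were labelled. The paper reports less RNA per oocyte at MII than at GV, so a higher level need not mean more transcript per oocyte. Amounts per oocyte were not tested. Whether a change differed between the genotypes was not tested, because that difference equals the difference between the genotype effects at MII and at GV on which the members were chosen.

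**Figure D4:**
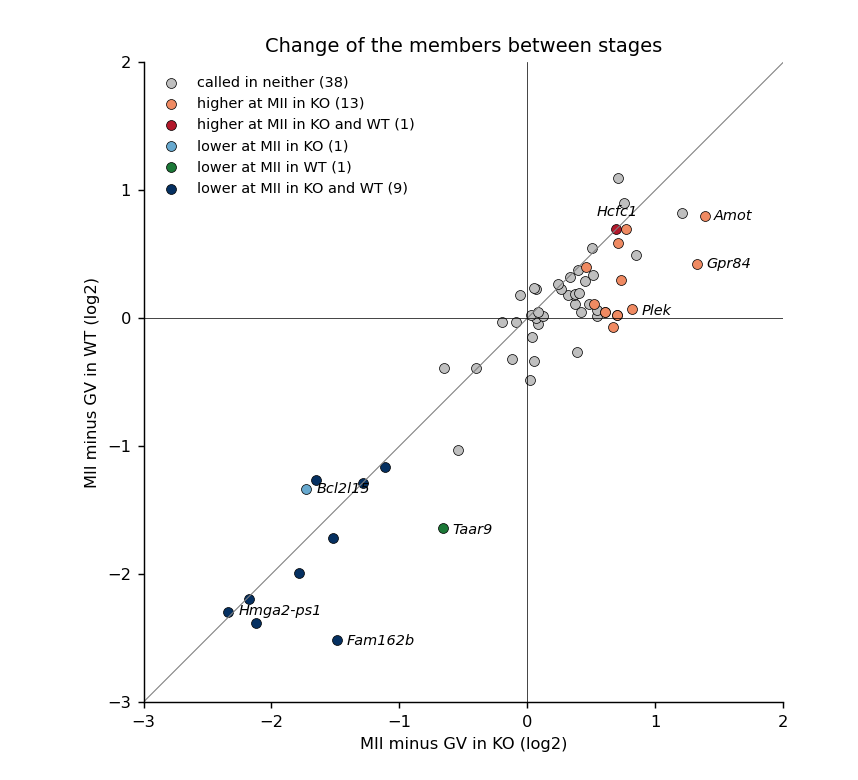
Change of the 63 members between stages (MII minus GV, log2), in KO on the x axis and in WT on the y axis, coloured by the limma calls. The line marks equal change. The 9 members lower in both genotypes lie at the lower left, and the 13 called higher in KO alone lie right of the vertical zero line.

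The number higher in KO depended on single samples. It was 3 without KO MII sample 1, 4 without KO MII sample 2, 4 without KO GV sample 1, 9 without KO GV sample 2, 7 without KO GV sample 3, and 8 without WT MII sample 1 or 2. The number lower in WT was 4 without WT MII sample 1, 5 without WT MII sample 2 and 6 without WT GV sample 2, and the number higher in WT was 2 without WT GV sample 1. The number lower in KO stayed between 9 and 11. When the arrays were quantile-normalized once more, 29 members were higher and 10 lower at MII in KO, and 10 higher and 11 lower in WT. The median change of clusters with a mean of at least 7 was then 0.30 in KO and 0.33 in WT, against -0.04 in KO and -0.03 in WT as deposited. Of the calls above, 12 of 24 in KO (with Bcl2l15 among the 12) and 4 of 11 in WT held without any 1 of the 10 samples, and those held in both genotypes were Fam162b, Elob, Rab1a and Hcfc1.

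Related genes were counted to see whether the partners and relatives of members were also higher in KO, on KO minus WT averaged over both stages, in 11 lists that together had 181 measured genes that are not members. Of these, 4 were higher and 8 lower in KO at an adjusted p under 0.05, whereas 0.776% of all clusters were higher and 1.11% lower. At an unadjusted p under 0.05 there were 53, where all clusters gave 14.4%. Most clusters of the array are dim, so the nearer background is again the 9045 other clusters with 1 symbol and a KO mean of at least 7, of which 3.33% were higher and 4.60% lower, and 38.5% had an unadjusted p under 0.05. Of the 119 related genes with such a level, 3 were higher (2.52%) and 6 lower (5.04%), and 43 had an unadjusted p under 0.05 (36.1%), shares near this background. The median of the 181 was 0.01, against -0.0012 over all clusters. Among AP-2 factors and their partners, 2 of 9 genes were lower, the AP-2 gamma gene of germ cells and trophoblast Tfap2c (-1.08 ± 0.15, SE, adjusted p = 0.0161) and Tfap2a (-0.29 ± 0.05, adjusted p = 0.0390) at a level under 6, both opposite in sign to the member Tfap2b. Among 13 HCF-1 partners E2f4, a repressor of the E2F family, was lower (-1.06 ± 0.13, adjusted p = 0.0104). The paper lists E2f4 as lower in KO on these same arrays. The lists were chosen with earlier results of these data known, so the call of E2f4 and the counts are descriptions. Of 9 genes of box C/D small nucleolar ribonucleoprotein assembly, the ATPase Ruvbl2 was lower (-0.69 ± 0.07, adjusted p = 0.00723). Of 24 GPI anchor genes, Pign, an ethanolamine phosphate transferase, was higher (0.85 ± 0.13, adjusted p = 0.0198) and Pigx lower (-0.53 ± 0.10, adjusted p = 0.0424).

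Of 17 SR splicing factors and their kinases, Srsf6 was higher (0.58 ± 0.11, adjusted p = 0.0418) and the kinase Clk2 lower (-0.53 ± 0.09, adjusted p = 0.0310). Of 31 genes of transport between the endoplasmic reticulum and the Golgi, the coat subunit Sec23a was higher (0.38 ± 0.05, adjusted p = 0.0127) and Sec31a lower (-0.28 ± 0.06, adjusted p = 0.0490). Of 15 genes of branched-chain amino acid breakdown the phosphatase Ppm1k was higher (0.53 ± 0.09, adjusted p = 0.0278). Of 39 ubiquitin-specific peptidases Usp33 was lower (-0.38 ± 0.06, adjusted p = 0.0247). None of 6 elongin and cullin-RING partners, 4 ENPP ectonucleotidases and 14 Ceacam genes was called by limma. At an unadjusted p under 0.05 there were 5, 2 and 0 of them, all higher in KO. The median difference was 0.35 in the elongin list, 0.18 in the ENPP list and -0.005 in the Ceacam list. Cul5, a cullin of the elongin ligases, measured 0.53 ± 0.13 (adjusted p = 0.107) and Rnf7 0.43 ± 0.19, Enpp4 0.54 ± 0.18 and Enpp5 0.31 ± 0.10, and Ceacam5 -0.19 ± 0.20 and Ceacam3 0.15 ± 0.08. Sec23a, Ruvbl2 and E2f4 were called without any 1 of the 10 samples, and the other 9 calls were lost in 2 to 10 of these fits, so that 1 to 5 genes were higher and 2 to 7 lower. The count higher was 2 without KO MII sample 1, 2 or 3, KO GV sample 1 or WT GV sample 2, and 1 without WT MII sample 1 or KO GV sample 3. The count lower was 3 without KO MII sample 1 or 3 or WT MII sample 1, 5 without KO MII sample 2, 4 without KO GV sample 1 or 3 or WT GV sample 1, and 2 without WT MII sample 2 or WT GV sample 2.

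**Figure D5:**
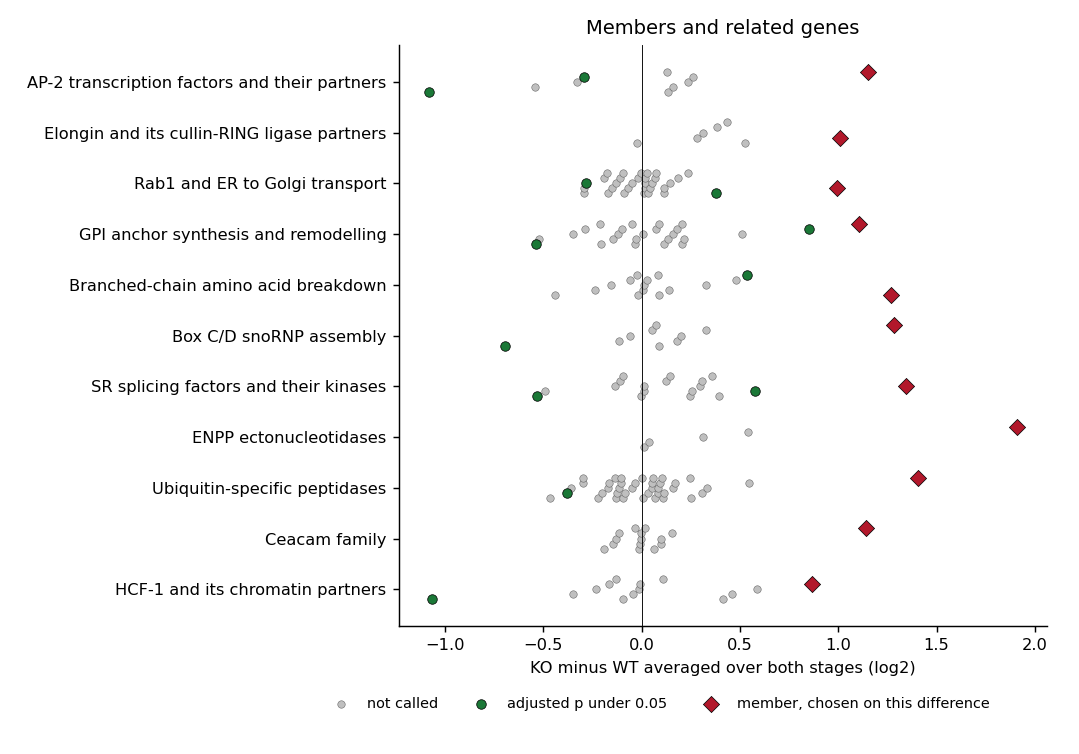
KO minus WT averaged over both stages (log2, x axis) of the genes of 11 lists. Red diamonds are members, chosen on this difference, green points other genes at an adjusted p under 0.05 (4 higher, 8 lower) and grey points the rest, spread vertically for legibility. The related genes lie on both sides of 0.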

How the data were processed

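Per the labels and the study's methods, the authors labelled RNA of pooled oocytes, hybridised 1-colour Affymetrix Clariom D arrays and ran RMA on the 10 arrays as a set in Affymetrix Expression Console (version not given in the sources used here), so the deposited values are log2 levels, background-corrected, quantile-normalized and summarised over probes. Genes were named from the platform annotation and RefSeq (GRCm38.p6). The genome build of the arrays is not given in the sources used here, so no cluster coordinates are given. Control probes (6732) were left out. The members and gene lists were chosen with earlier results of these data known.

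limma 3.58.1 (R 4.3.3) was fitted to 65956 clusters with 1 mean per group over all 10 arrays (lmFit, contrasts, eBayes, 6 residual and 2.02 prior degrees of freedom), two-sided, with Benjamini-Hochberg adjustment over the clusters. The fit was tested on simulated data. Only 2 arrays per WT group limit the precision. Values per array were given for the 12 members with the largest averaged difference, the 6 highest in KO, the 6 with the largest change in WT and the 3 nearest the minimum. Of each list, genes past the test or else the 2 with the largest difference were named. Other settings tried were a block for the replicate number, other scalings, a level filter, trend and robust estimation, other arrays in the fit, the methods' ANOVA and other minimums. Figures used matplotlib 3.10.9.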

Additional observations from a re-analysis of the deposited data

Results flagged for a closer look

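The hybridisation controls, probes outside the measured transcripts for labelled sequences added to every sample, read above their WT level in every KO sample. The difference KO minus WT was 0.266 at MII and 0.497 at GV on the log2 scale, over 4 controls. Its part in the members' differences was not tested. Groups held 2 or 3 samples, too few to test a single sample for being far from the others.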

How the results depend on the processing

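With each sample left out in turn, the number of members higher at MII was 3 to 15 in KO (14 with all samples) and 1 to 2 in WT (1), and the number lower was 9 to 11 in KO (10) and 4 to 11 in WT (10). Related genes higher in KO numbered 1 to 5 (4) and lower 2 to 7 (8), and the rule was met by 56 to 84 clusters (63). Without KO GV sample 1 the rule was met by 69 clusters, of which 51 were among the 63 members. Fewer members were kept without WT GV sample 1 or 2, and 62 were kept without KO MII sample 3. Quantile normalization once more gave 29 members higher at MII in KO, 10 higher in WT and 7 related genes higher. A mean level of at least 6 gave 2 members higher in WT and 9 related genes higher, over fewer clusters tested. Trend and robust estimation gave 3 related genes lower. The arrays of the compared groups alone, with fewer samples behind the spread, gave 8 members higher in KO, 0 higher in WT and 2 lower in WT, and this setting cannot be had for the averaged comparison, which uses every group. The methods' ANOVA (at least 2-fold, with p under 0.05 unadjusted) gave 2 members higher in KO, 0 higher in WT and 3 lower in WT, and 0 related genes higher and 2 lower. A minimum difference of 1 left 28 members and 0.6 took 150, by construction. For the other moves the cause was not tested. With the replicate number as a block, 1 related gene was higher and 3 were lower, and 12 members were higher in KO, 1 higher in WT, 11 lower in KO and 8 lower in WT. Samples of the same number did not deviate together (r = -0.001, 0.057 and -0.059 in KO and 0.051 in WT over 16316 clusters), so they share a number and no known pairing. The remaining settings moved none of these counts by over 1.5 times. Signal over background limits members near a level of 6, such as Bcl2l15 at MII and Gpr84 at GV, whose differences can be compressed. The WT values of Dkk3, Insyn2b, Gm33489 and Cubn also lay under the level of the negative controls, as did some WT values of Fstl5, Eddm3b, Tnfrsf21, Mir8115 and Frg2f7.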
